A study of Mus musculus with 16 samples.

Results

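T2R1 names hearts of C57BL/6 mice that were exposed to an aggressor mouse for 2 days and then rested for 1 day, and it is set here against control hearts of the same strain. The exposed mice spent 6 hours a day in a wire mesh box inside the cage of an aggressor, and were also placed with the aggressor repeatedly and bitten. Control mice were boxed in the same way, in a large cage without an aggressor mouse. The labels do not say for how many days, and the treatment protocol attached to these samples names 5 or 10 days of exposure, lengths that the design text gives for an earlier experiment of the study. The 2 days used here come from the design text and the sample labels. Age and sex are not given in the sources used here. The labels put 4 samples in T2R1 and 4 in control, 8 of the 16 samples of the study, and each is total RNA of an individual heart. The other 8 samples had 1 day (T1R1) or 3 days (T3R1) of exposure, each with 1 day of rest. MicroRNAs were measured on 2-colour locked nucleic acid arrays, on which each array held 2 samples of the same group, labelled with Hy3 and with Hy5. All 1023 probes that name a mouse microRNA were taken, out of 2668 distinct probes, and 1022 could be tested.

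The slide numbers of the arrays fall into 2 runs. T2R1 and T1R1 lie in one run, control and T3R1 in the other. Exposure and slide run therefore cannot be told apart in any difference between T2R1 and control. T2R1 against T1R1 is the comparison of T2R1 that stays within a run.

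A microRNA is a short RNA cut from a hairpin precursor that guides the silencing machinery to messenger RNAs, mostly by pairing through its seed, bases 2 to 8 from its 5′ end. Both strands of a hairpin can be released, and a star in the array's names marks the strand held to be the less abundant. Heart muscle is known for miR-1, miR-133, miR-208 and miR-499, and is also rich in the miR-30 and let-7 families, whose members share a seed within a family.

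The mature sequences below are those of the microRNAs on which the results turn, so that probes for close relatives can be compared. They are given 5′ to 3′ with the seed in capitals, and come from RefSeq on build GRCm38.p6, which held 8 of the 12 called microRNAs. let-7a and relatives near to it come first.
let-7a: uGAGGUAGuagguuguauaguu
let-7c: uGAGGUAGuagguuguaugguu
let-7e: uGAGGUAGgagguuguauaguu
let-7f: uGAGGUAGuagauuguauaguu
let-7i: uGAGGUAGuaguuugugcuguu
miR-30a: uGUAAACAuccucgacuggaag
miR-30e: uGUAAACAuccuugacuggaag
miR-30c: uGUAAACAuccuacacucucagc
miR-24-1*: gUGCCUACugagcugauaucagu
miR-24-2*: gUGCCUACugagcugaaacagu
miR-883a-5p: uGCUGAGAgaaguagcaguuac
miR-883b-5p: uACUGAGAauggguagcaguca
miR-582-3p: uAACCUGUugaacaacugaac
miR-677*: gAAGCCAGaugccguuccugagaagg
miR-690: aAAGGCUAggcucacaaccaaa

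Positions count from 1 at the 5′ end, with the base of the called microRNA first. let-7a differs from let-7c by A19G, from let-7e by U9G and from let-7f by G12A, so these 3 relatives each stand 1 base away from it, while let-7i stands 4 bases away. miR-30a differs from miR-30e by C13U alone. The seeds of miR-883a-5p and miR-883b-5p are not the same, although their precursors lie close together on the X chromosome.

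On GRCm38.p6 the let-7a sequence lies at chr13:48538239-48538260 on the minus strand in Mirlet7a-1, and miR-30a at chr1:23272274-23272295 on the plus strand in Mir30a. The array's names also hold a let-7a-2 precursor, whose position is not given here, and the let-7a signal was not assigned to either. miR-24-1* lies at chr13:63301213-63301235 on the plus strand in Mir24-1, within the bounds of the protein-coding gene Aopep. miR-883a-5p was at chrX:66780803-66780824 and miR-883b-5p at chrX:66789936-66789957, both on the minus strand. miR-582-3p lies at chr13:109324790-109324810 on the plus strand within the bounds of Pde4d, miR-677* at chr10:128085335-128085360 on the plus strand within those of Atp5b, and miR-690 at chr16:28599940-28599961 on the minus strand within those of Fgf12. Those bounds are of whole genes, so exon and intron are not separated here.

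Heart muscle markers were detected in every sample. Background was taken as the 95th percentile of 143 probes for human viruses in each sample. Above it stood 178 to 221 mouse probes in the T2R1 samples and 178 to 210 in the control samples, and 194 probes did so in at least 4 of the 8. Among the heart muscle markers, miR-133a, miR-133b, miR-208a-3p and miR-499 were above the virus level in every sample that had a value. No mouse probe matched the name miR-1, so that marker was not assessed. None of the 7 neuronal, 3 liver and 10 epithelial markers on the arrays reached it in at least 4 of the 8 samples. Across 188 probes above it, samples correlated at 0.957 to 0.986 within T2R1, at 0.962 to 0.984 within control and at 0.943 to 0.978 between the groups. Control replicate 1 stood apart from the other control samples on some of the brightest probes, and differences that it moved are given below with and without it. Landing lights, positioning spots that carry their own label, had a mean raw Hy3 signal of 24378 and 22746 on the T2R1 arrays against 15369 and 15952 on the control arrays. They were likewise 27772 and 24239 on the T1R1 arrays and 15892 and 15680 on the T3R1 arrays, and their part in the results was not tested.

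After 2 days of exposure the probes of let-7a and miR-30a had the clearest differences from control, both higher, at 1.71 and 1.65 times the control signal. miR-720 had the largest difference, at 2.13 times, against a single control value. miR-690, miR-677*, miR-883a-5p, miR-24-1*, miR-133a* and miR-883b-5p were also higher. miR-1186b, miR-582-3p and miR-150 were lower, at 0.694, 0.754 and 0.841 times the control signal. In limma 12 of 1022 probes were called at an adjusted p under 0.05, 1.17% of those tested, with 9 higher (0.881%) and 3 lower (0.294%). Before adjustment, 81 probes had a p under 0.05, 51 higher and 30 lower, where 51.1 are expected by chance. In tissue RNA, fewer cells of a type and less of a microRNA per cell cannot be told apart.

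**Figure D1:**
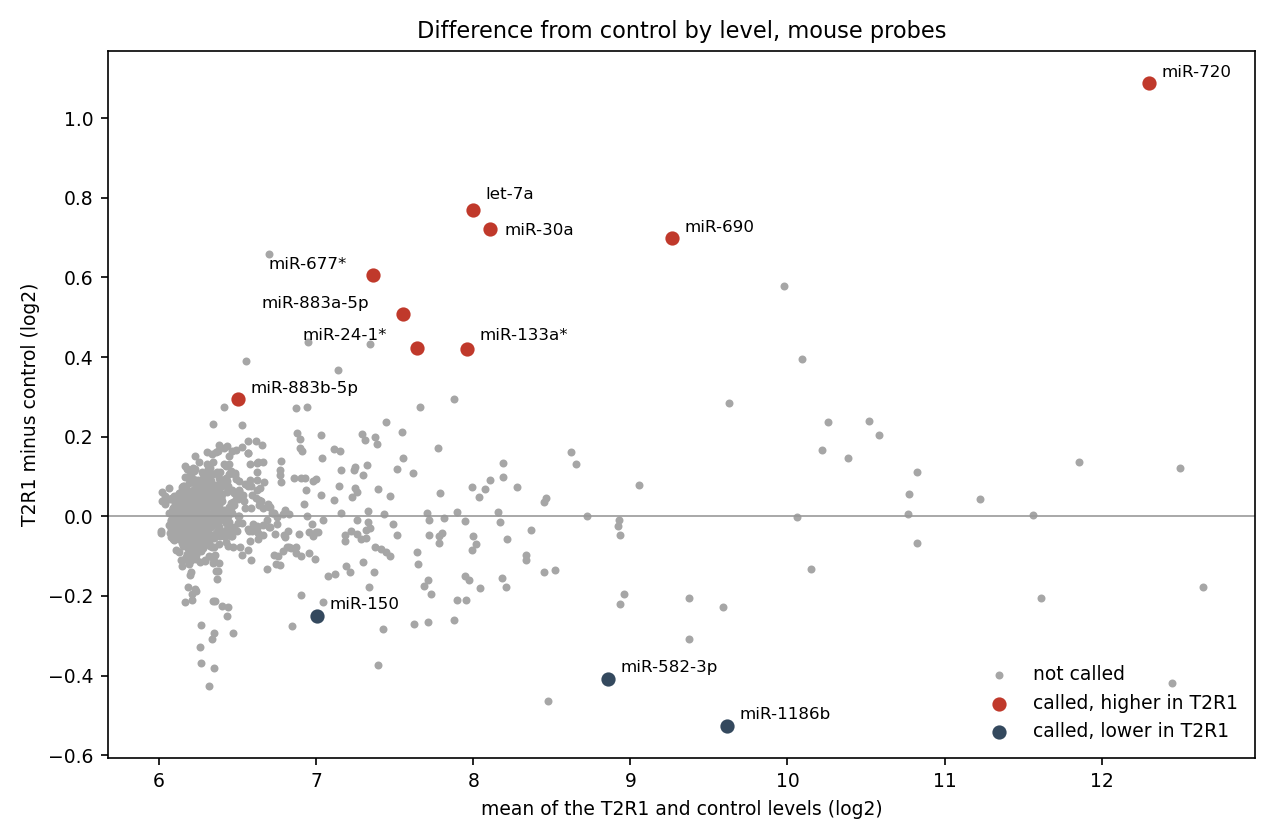
Each point is a mouse probe. The x axis is the mean of its T2R1 and control levels and the y axis is T2R1 minus control from the limma model, both on the log2 scale. The 9 probes called higher (red) reach 1.09 for miR-720, the 3 called lower (dark blue) reach -0.53 for miR-1186b, and the other probes are grey.

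let-7a belongs to a family that rises as tissues mature and that restrains growth genes. Its level was 8.36, 8.29, 8.45 and 8.42 in the T2R1 samples, against 7.60, 7.55, 7.65 and 7.64 in the control samples, on the log2 scale. All T2R1 samples were above all control samples, and the gap between the groups (0.65) was wider than the range within either. The difference was 0.77 ± 0.07 (SE, n = 4 against 4, limma adjusted p = 1.77e-05). Within the Hy3 samples it was 0.78 and within the Hy5 samples 0.76.

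miR-30a, from a family that is abundant in heart muscle cells, had levels of 8.44, 8.55, 8.43 and 8.44 in T2R1 and of 7.62, 7.69, 7.84 and 7.84 in control. The T2R1 samples lay close together, and the gap of 0.59 to the highest control sample exceeded the control range. miR-30a differed by 0.72 ± 0.07 (limma adjusted p = 4.95e-05), at 0.71 in Hy3 and 0.73 in Hy5.

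miR-720 is a name now held to belong to a piece of transfer RNA. It had the highest signal of the mouse probes in T2R1, with levels of 12.74, 12.65, 12.97 and 12.98. Of the control samples, replicate 3 alone had a value, 11.77, because 15 of 16 control spots carried an outlier mark and were left out. The model, which drops the missing samples, gave a difference of 1.09 ± 0.14 (limma adjusted p = 0.00287) that rests on that sample, and without it there is no control value. Its SE assumes that the lone control sample varies like the samples of the other groups, so the call includes no spread between control hearts. With the marked spots kept, the levels were 12.66, 12.61, 12.86 and 12.93 in T2R1 against 11.61, 11.71, 11.50 and 11.45 in control. The groups did not overlap there either, and the difference was 1.20 (limma adjusted p = 8.95e-05).

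miR-24-1*, the less abundant strand of a precursor clustered with miR-23b and miR-27b, was 7.87, 7.81, 7.87 and 7.87 in T2R1, against 7.34, 7.38, 7.56 and 7.43 in control. miR-133a*, from a precursor whose main strand is specific to muscle, was 8.36, 8.11, 8.28 and 7.92 in T2R1, against 7.75, 7.64, 7.89 and 7.71 in control. Neither overlapped between the groups, although for miR-133a* the lowest T2R1 sample stood only 0.03 above the highest control sample. Their differences were nearly equal, 0.42 ± 0.06 for miR-24-1* (limma adjusted p = 0.00227) and 0.42 ± 0.07 for miR-133a* (limma adjusted p = 0.00635).

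miR-883a-5p and miR-883b-5p come from a cluster on the X chromosome that was described in mouse testis. The level of miR-883a-5p was 7.83, 7.76, 7.89 and 7.75 in T2R1, against 7.30, 7.38, 7.34 and 7.18 in control. That of miR-883b-5p was 6.56, 6.60, 6.76 and 6.68 in T2R1, against 6.44, 6.43, 6.22 and 6.34 in control. The groups did not overlap for either microRNA, but miR-883b-5p was under the virus level in all 8 samples. miR-883a-5p differed by 0.51 ± 0.09 (limma adjusted p = 0.00635), and miR-883b-5p by 0.29 ± 0.07 at the edge of the threshold (limma adjusted p = 0.0498). miR-883b-5p kept its call without control replicate 1 and lost it when any other of the 8 samples was left out, with limma adjusted p values of 0.0633, 0.0698, 0.154 and 0.0863 without T2R1 replicates 1 to 4 and 0.115, 0.171 and 0.105 without control replicates 2 to 4.

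miR-677* was 7.39, 7.53, 7.78 and 7.95 in T2R1, against 7.06, 7.15, 6.94 and 7.08 in control, and the groups did not overlap. Its T2R1 samples were spread between the arrays, with a mean of 7.46 on the first and 7.86 on the second. It differed by 0.61 ± 0.12 (limma adjusted p = 0.0279), a call that was lost without T2R1 replicate 3 (0.0873) or 4 (0.0613) and without control replicate 2 (0.0819) or 3 (0.0734). miR-690 was 9.82, 9.63, 9.51 and 9.50 in T2R1, against 9.01, 9.36, 8.63 and 8.66 in control, with both control samples of the first array above those of the second. All T2R1 samples were above all control samples. The difference was 0.70 ± 0.15 (limma adjusted p = 0.0328), and the call was lost whichever T2R1 replicate was left out (limma adjusted p of 0.0832, 0.0698, 0.0817 and 0.0571 without replicates 1 to 4) and without control replicate 3 (0.115) or 4 (0.0806).

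**Figure D2:**
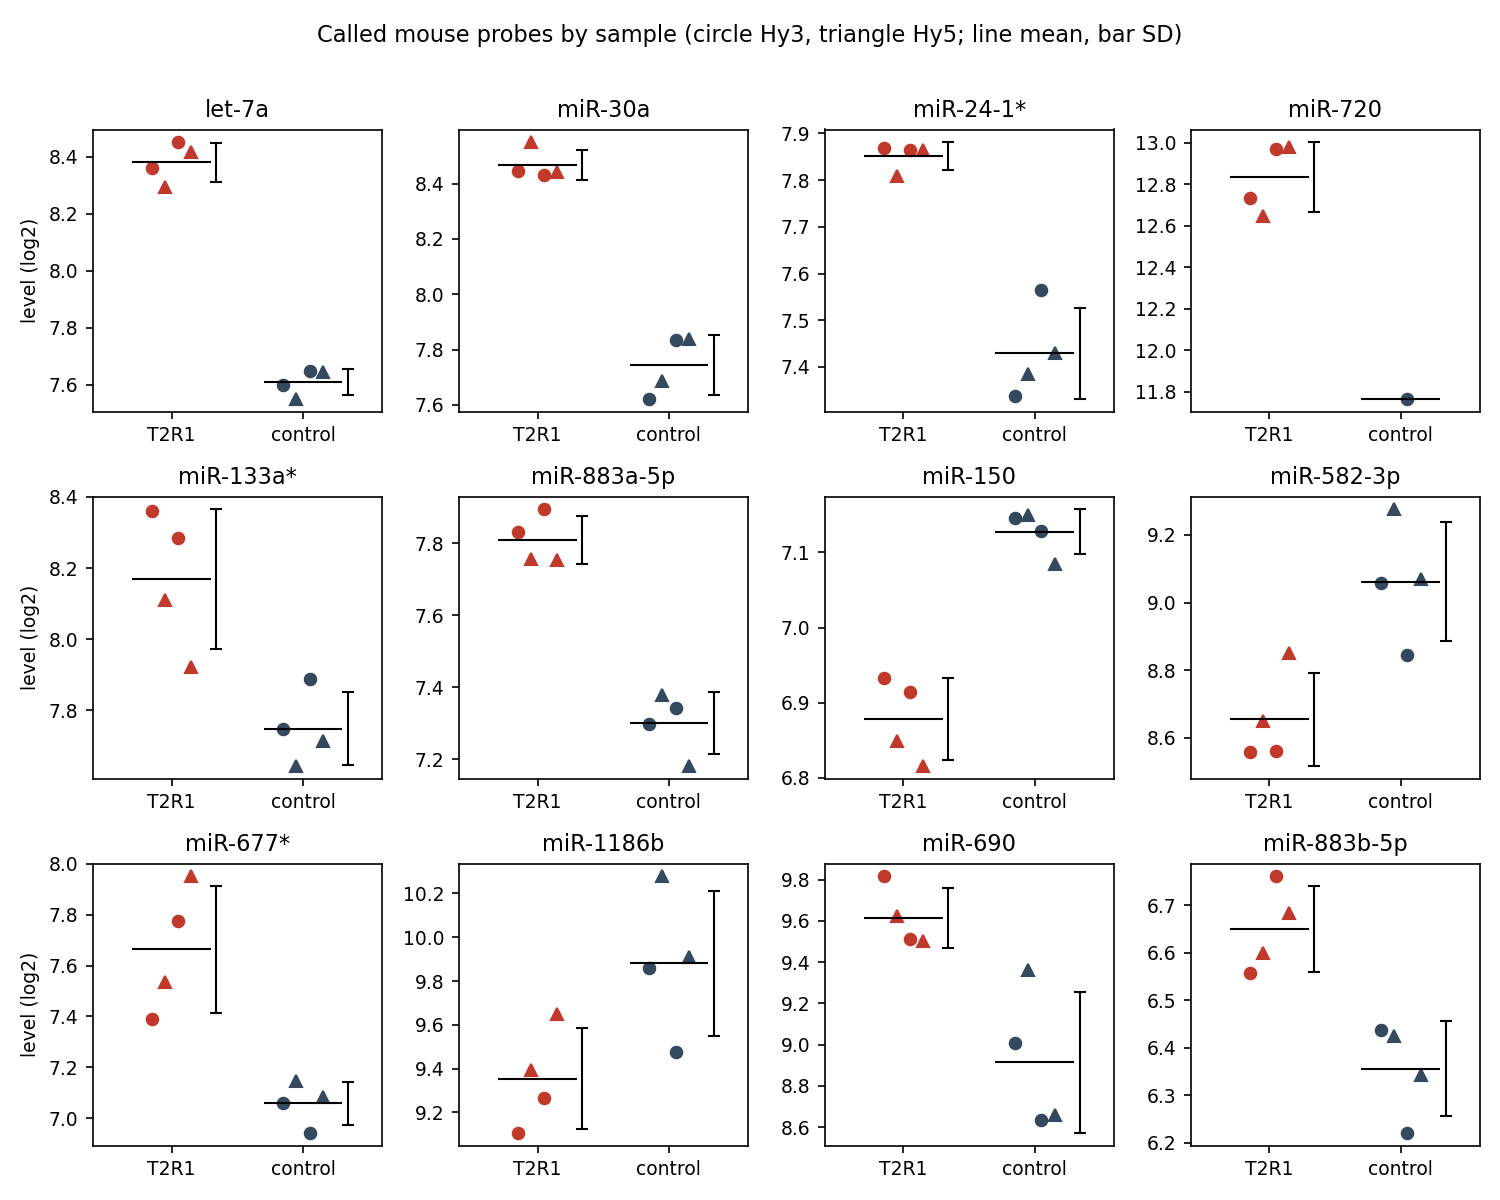
Levels of the 12 called probes on the log2 scale, with T2R1 at the left and control at the right of each panel. Circles are Hy3 samples and triangles Hy5 samples, the line is the group mean and the bar its SD. In 10 panels the groups do not overlap, while for miR-582-3p and miR-1186b the highest T2R1 sample lies above the lowest control sample. These probes were picked for their difference. Over all 1022 tested probes, T2R1 lay wholly above control for 31 (3.03%) and wholly below for 16 (1.57%). miR-720 has 1 control value.

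miR-150, typical of mature lymphocytes, was the lower call with the least spread. Its level was 6.93, 6.85, 6.91 and 6.82 in T2R1, against 7.15, 7.15, 7.13 and 7.08 in control, with no overlap. The difference was -0.25 ± 0.04 (limma adjusted p = 0.00635), and 3 of the 4 T2R1 samples and all control samples were above the virus level.

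miR-582-3p was 8.56, 8.65, 8.56 and 8.85 in T2R1, against 9.06, 9.28, 8.84 and 9.07 in control. miR-1186b was 9.11, 9.39, 9.27 and 9.65 in T2R1, against 9.86, 10.28, 9.47 and 9.91 in control. In both, T2R1 replicate 4 was above control replicate 3, so the groups overlapped by these samples. The differences were -0.41 ± 0.08 for miR-582-3p (limma adjusted p = 0.0119) and -0.53 ± 0.11 for miR-1186b (limma adjusted p = 0.0328). miR-1186b lost its call whichever T2R1 replicate was left out (limma adjusted p of 0.0733, 0.0926, 0.064 and 0.0571 without replicates 1 to 4) and without control replicate 1 (0.0608) or 2 (0.101).

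The direction of these 3 lower probes depended on how arrays were scaled to each other. With the arrays scaled to a common median, their differences were 0.04 for miR-150, 0.48 for miR-582-3p and 0.53 for miR-1186b. There miR-582-3p and miR-1186b were called higher (limma adjusted p of 0.0209 and 0.0289), the opposite direction to the main fit, and miR-150 was not called (0.782). With no step between arrays the median difference of all mouse probes moved to -0.62, and relative to it the 3 stood at 0.03, 0.47 and 0.52. Median scaling shifts each sample of that setting by its median, so these relative values repeat it by construction and are no separate check. let-7a and miR-30a were higher under every scaling tried, with let-7a at 0.70 to 1.32 and miR-30a at 0.67 to 1.30. miR-883b-5p stood at -0.25 with no step between arrays, or at 0.37 relative to the median of all mouse probes.

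How often a call was kept, in the same direction, over the alternative settings differed widely among the 12. The setting limited to probes well above background tested the same 1022 probes as the main fit, so all 12 were kept there by construction. let-7a was called in 18 of 18 and miR-30a in 17 of 18, and these were the calls left when the 2 samples of an array were averaged, with limma adjusted p values of 0.00942 and 0.0395. miR-720 was called in 12 of 16, miR-24-1* and miR-883a-5p in 11 of 18, miR-133a* and miR-677* in 9, miR-690 in 7, miR-150 and miR-582-3p in 6, miR-1186b in 4 and miR-883b-5p in 6 of 17.

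All but 1 of the 12 calls, miR-883b-5p, lay among the 255 brightest of the mouse probes. Over all probes the 4 T2R1 samples lay above the 4 control samples for 31 (3.03%) and below them for 16 (1.57%), and among the 255 brightest the groups separated for 26. Probes that name no mouse microRNA were put through the same model, with p values adjusted over the whole array, on which 43 of 2666 probes were called (1.61%). That adjustment called 14 of 1023 mouse probes (1.37%), 15 of 1117 that name human or rat microRNAs only (1.34%), 10 of 233 without a name (4.29%) and 2 of 143 for human viruses (1.40%). It called 0 of 56 mouse virus probes at limma adjusted p, 6 of them having an unadjusted p under 0.05. Of 62 spike-in control probes it called 1 (1.61%), higher in T2R1 by 0.875 ± 0.15 (limma adjusted p over the array = 0.0119). The differences of the spike-in probes ran from -0.35 to 0.875, 30 positive and 32 negative, with a median of -0.003. The share called among mouse probes was thus near that among probes for human viruses. Among small nuclear and ribosomal RNAs, 5S rRNA differed by 0.57 ± 0.16 (limma adjusted p over the array = 0.142), RNU1 by 0.37 ± 0.11 (0.181), RNU6-1 by 0.38 ± 0.16 (0.447) and RNU5 by 0.33 ± 0.08 (0.0444). The probe shared by RNU6-1 and RNU6-2 differed by 0.20 (0.755) and U6B by 0.02 ± 0.06 (0.957), and the small nucleolar RNAs lay between -0.10 and 0.20. Of these 24 small RNAs, 17 had positive and 7 negative differences, and the median was 0.04.

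Within families the differences varied in size and direction. Of the 9 let-7 members, 4 had positive and 5 negative differences, 1 was called, and the median was -0.01. let-7f, 1 base from let-7a, was 7.60, 7.50, 7.79 and 7.73 in T2R1 against 7.46, 7.57, 7.35 and 7.39 in control. Its difference of 0.21 ± 0.08 was not called (limma adjusted p = 0.442), and T2R1 replicate 2 lay under the highest control sample. let-7c and let-7e, also 1 base away, differed by 0.08 ± 0.08 and 0.04 ± 0.09. let-7i was 8.98, 8.98, 8.72 and 8.60 in T2R1 against 9.10, 9.06, 9.07 and 8.94 in control, a difference of -0.22 ± 0.11 (limma adjusted p = 0.666). let-7b and let-7g stood at -0.20 ± 0.18 and -0.20 ± 0.19, miR-98 at -0.07 ± 0.07 and let-7d at -0.01 ± 0.09.

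The count of positive let-7 members ran from 2 of 9 without an offset in the background correction to 9 of 9 under median scaling. let-7a had the largest difference of the family under each scaling. Under median scaling it stood at 1.32 and let-7c, the next, at 0.97. With no step between arrays let-7a was at 0.70 and let-7c at 0.35. These settings differ by a shift of whole samples, so the distance between let-7a and let-7c is the same in both by construction.

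In the miR-30 family all 5 members had positive differences, with a median of 0.17, and 1 was called. With quantile normalization 4 of 5 were positive and in the authors' deposited values 3 of 5. miR-30e, which differs from miR-30a by C13U, was 10.18, 10.00, 10.60 and 10.44 in T2R1 against 10.51, 9.96, 10.10 and 9.98 in control. The groups overlapped, and its difference was 0.17 ± 0.15 (limma adjusted p = 0.885). miR-30d differed by 0.17 ± 0.07, miR-30b by 0.11 ± 0.15 and miR-30c by 0.04 ± 0.20. miR-30c, whose control replicate 1 stood at 11.88 against 10.76 to 11.14 in the other control samples, differed by 0.25 ± 0.13 without that sample (limma adjusted p = 0.445). miR-30e and miR-30b then differed by 0.26 ± 0.14 and 0.27 ± 0.10, and neither was called (limma adjusted p of 0.463 and 0.297). Over all mouse probes 530 of 1022 differences were positive (51.9%) and the median was 0.00.

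**Figure D3:**
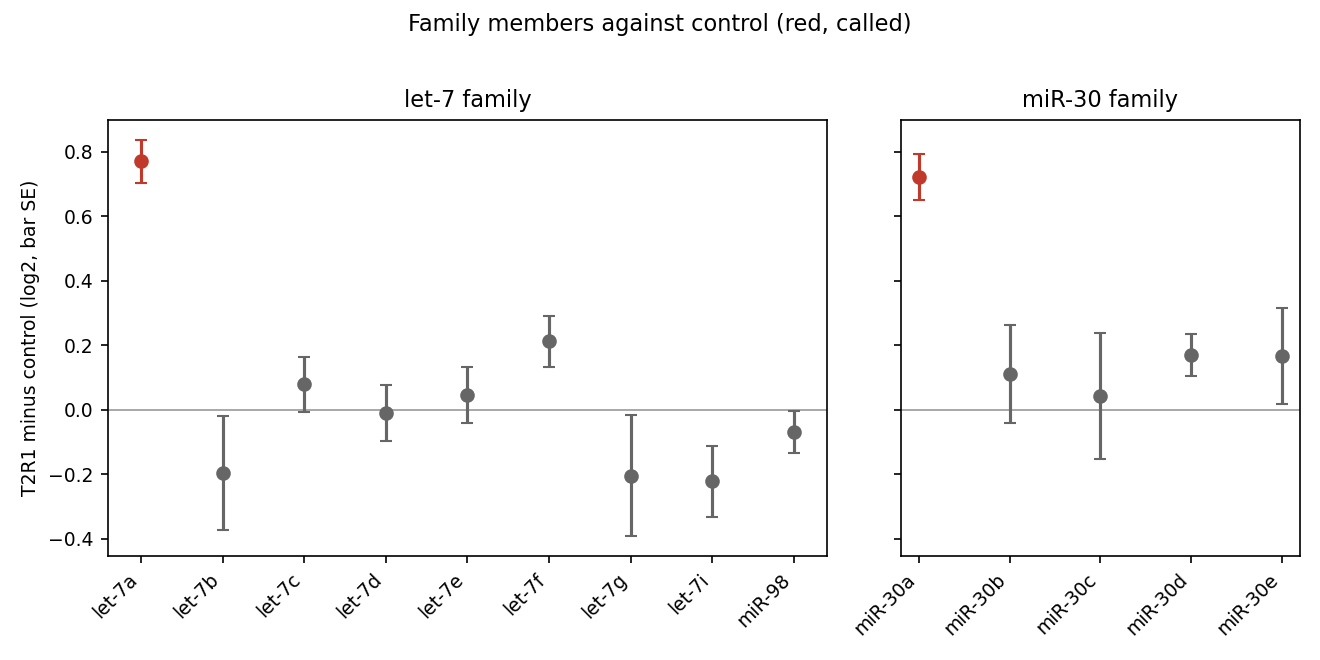
Differences between T2R1 and control for the members of the let-7 family (left) and the miR-30 family (right), on the log2 scale with SE bars. let-7a at 0.77 and miR-30a at 0.72 are the called members (red). The other 12 lie between -0.22 and 0.21 here, and lie higher under median scaling, where every member is positive.

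For each called microRNA the array also held probes for the other strand of its precursor, except for miR-720, miR-690 and miR-1186b. None of these other strands was called. miR-30a* differed by 0.01 ± 0.05, let-7a-2* by 0.10 ± 0.06 and the probe shared by let-7a-1* and let-7c-2* by 0.07 ± 0.05, but all were under the virus level in every sample, where a difference is hard to see. The main strands of the muscle and cluster precursors were bright. miR-133a was 10.25, 10.26, 10.64 and 10.67 in T2R1 against 10.82, 10.35, 10.00 and 10.08 in control, so the groups overlapped, and it differed by 0.15 ± 0.18 (limma adjusted p = 0.894). miR-24 was 10.53, 10.22, 11.40 and 10.94 in T2R1 against 11.49, 10.49, 10.70 and 10.39 in control, a difference of 0.01 ± 0.24 (limma adjusted p = 0.994). Control replicate 1 was the highest control sample for both. Without it miR-133a differed by 0.31 ± 0.15 (limma adjusted p = 0.419) and miR-24 by 0.19 ± 0.22 (limma adjusted p = 0.757), beside 0.38 ± 0.07 for miR-133a* and 0.38 ± 0.05 for miR-24-1*. How far the main strands lay from the star strands thus moved with that sample, and the difference between the strands was not tested.

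Of the less abundant or dimmer partners, miR-677 differed by 0.11 ± 0.05, miR-883a-3p by -0.06 ± 0.04, miR-883b-3p by 0.01 ± 0.03, miR-150* by -0.04 ± 0.04 and miR-582-5p by 0.05 ± 0.09. All 5 were under the virus level in the 8 samples.

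**Figure D4:**
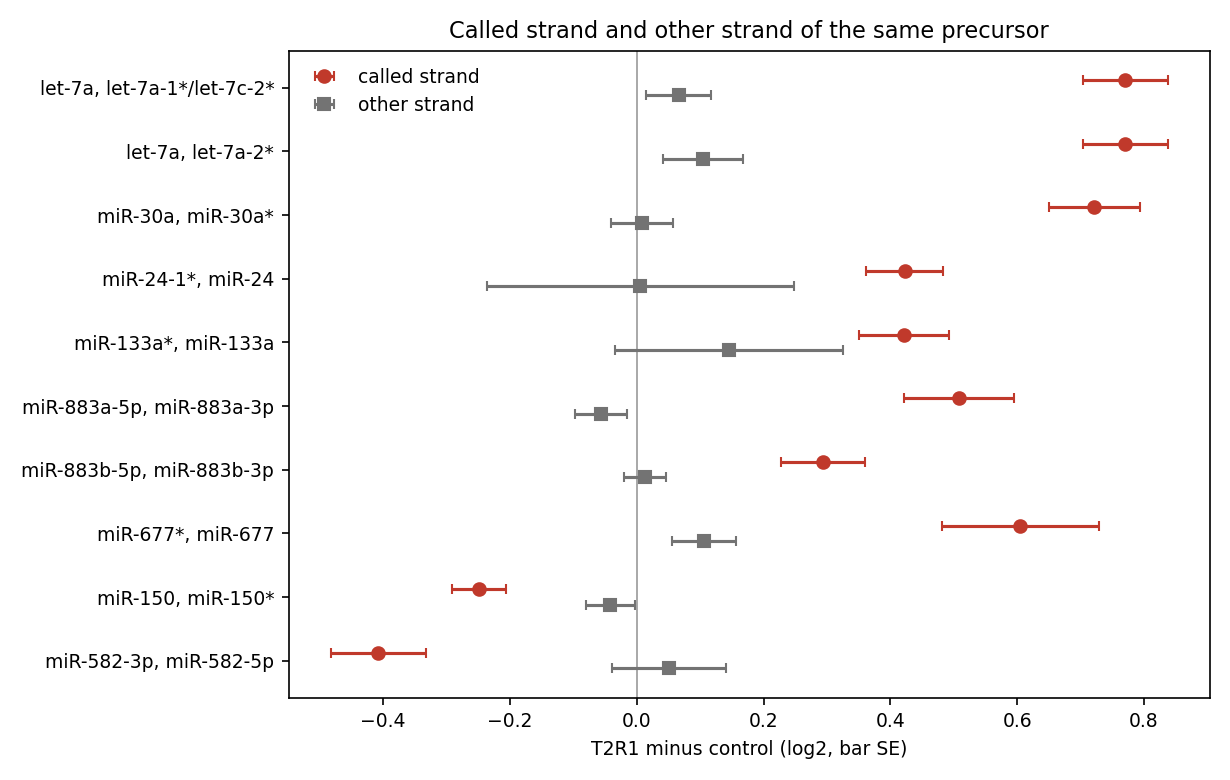
Differences between T2R1 and control of the called strand (red circle) and the other strand (grey square) of the same precursor, on the log2 scale with SE bars. The other strands lie between -0.06 for miR-883a-3p and 0.15 for miR-133a, or 0.31 for miR-133a without control replicate 1, and none was called.

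Neighbours within 10 kb were looked up for the 8 called microRNAs that RefSeq held, and so not for miR-720, miR-133a*, miR-150 and miR-1186b. Apart from miR-883a-5p and miR-883b-5p, which lie within 10 kb of each other, the neighbours found were not called. In the cluster of miR-24-1*, miR-23b had the largest difference after the called strand, 0.24 ± 0.13 (limma adjusted p = 0.722), or 0.35 ± 0.11 without control replicate 1 (limma adjusted p = 0.158). There miR-27b differed by -0.04 ± 0.05, miR-27b* by 0.02 ± 0.05, miR-23b* by 0.06 ± 0.09 and miR-3074-5p by -0.03 ± 0.07. miR-24-2*, which has the same seed as miR-24-1* on another chromosome, differed by 0.12 ± 0.09. Around miR-883a-5p, the largest difference among the uncalled neighbours was that of miR-743a, 0.21 ± 0.08 (limma adjusted p = 0.487), with 6.83, 7.10, 6.86 and 7.13 in T2R1 against 6.83, 6.94, 6.59 and 6.72 in control. The other neighbours there, miR-742, miR-741, miR-463, miR-471-3p and miR-743b among them, were under the virus level. Near let-7a in Mirlet7a-1, the only let-7a position looked up, let-7d* differed by 0.08 ± 0.05 and let-7f-1* by 0.00 ± 0.05.

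The heart and skeletal muscle microRNAs were not called. Of the 6 on the array under the names listed, 4 had positive and 2 negative differences, a count that ran from 2 to 6 over the scalings, and the median was 0.00. miR-208a-3p, which comes from an intron of a cardiac myosin gene, was 12.44, 11.78, 12.67 and 11.93 in T2R1, against 13.63, 12.54 and 11.91 in control replicates 1, 3 and 4. Its difference was -0.42 ± 0.24 (limma adjusted p = 0.763), and -0.02 ± 0.17 without control replicate 1. miR-133b was 11.89, 11.84, 12.04 and 11.92 in T2R1 against 12.59, 11.26, 11.63 and 11.66 in control, a difference of 0.14 ± 0.24. Without control replicate 1 it differed by 0.40 ± 0.15, still not called (limma adjusted p = 0.292). miR-499, from another myosin gene, differed by -0.11 ± 0.11, and miR-208b and miR-206 by 0.01 ± 0.06 and 0.00 ± 0.08.

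Apart from miR-720, the brightest probes of T2R1 hearts had no called difference. miR-22, abundant in heart muscle, was 12.78, 12.36, 12.75 and 12.32 in T2R1 against 13.97, 11.74, 12.86 and 12.35 in control. Control replicate 1 was the highest of the 8 samples for miR-22, and likewise for miR-709, at 12.65 against 11.30 to 11.59 in the other control samples. Their differences were -0.18 ± 0.33 and -0.21 ± 0.28, and 0.17 ± 0.18 and 0.10 ± 0.15 without that sample. miR-126-3p, the microRNA of endothelial cells, differed by 0.00 ± 0.19, or by 0.21 ± 0.12 without that sample, and miR-451, of red blood cells, by 0.12 ± 0.46 with 2 control values. miR-143 had a value in 1 T2R1 sample and in no control sample after outlier spots were left out, and could not be tested.

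Among lists for other cell types and processes, the leukocyte list alone held a call, that of miR-150, 1 of its 9 members where 1.17% of all mouse probes were called. Of the 9, 5 had positive and 4 negative differences, with a median of 0.04, and the count of positive members ran from 1 of 9 with no step between arrays to 9 of 9 under median scaling. miR-142-3p, shared by blood cells in general, was 7.73, 7.53, 7.45 and 7.54 in T2R1 against 7.46, 7.42, 7.40 and 7.02 in control, a difference of 0.24 ± 0.18 (limma adjusted p = 0.868). miR-142-5p, from the same precursor, differed by -0.18 ± 0.15 and miR-181a by 0.07 ± 0.05. The sample medians of the leukocyte list ran from 6.70 to 6.89 in T2R1 and from 6.77 to 7.09 in control.

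In each of the other lists limma called 0 members at an adjusted p under 0.05, and the counts of positive members moved with the scaling. In the remodelling and fibrosis list 10 of 13 members were positive with a median of 0.06, a count that was 6 of 13 with no step between arrays and 13 of 13 under median scaling. Its lowest p values were those of miR-34a, a target of p53, at 0.20 ± 0.08 (limma adjusted p = 0.495) and miR-199a-5p at 0.29 ± 0.12 (limma adjusted p = 0.506), with miR-23b next. The glucocorticoid and stress axis list, which holds miR-34a and both arms of miR-142 too, had 2 of 6 positive (1 to 4 over the scalings) and a median of -0.02. The miR-15/16 family had 3 of 6 positive (1 to 6) and a median of -0.04, with miR-16 at -0.23 ± 0.12 and miR-497 at 0.13 ± 0.08. The metabolic list had 4 of 8 positive (3 to 7) and a median of 0.01, with miR-103 at -0.13 ± 0.07 and miR-378/miR-378b at 0.24 ± 0.13.

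Among the cell type lists, the erythroid list had 3 of 4 positive (2 to 4 over the scalings), with miR-16 again and the probe of miR-3107/miR-486 at 0.05 ± 0.08, and sample medians of 8.94 to 9.37 in T2R1 and 8.29 to 9.33 in control. The endothelial list had 3 of 4 positive (1 to 4), with miR-222 at 0.04 ± 0.07 and miR-221 at -0.03 ± 0.05, and sample medians of 7.23 to 7.44 in T2R1 and 7.30 to 7.43 in control. Both tested members of the smooth muscle list were positive (1 to 2), miR-145 at 0.09 ± 0.08 and miR-100 at 0.07 ± 0.06. The neuronal list had 3 of 7 positive (0 to 3), with miR-132 at 0.07 ± 0.04 and miR-138 at -0.04 ± 0.03, and the liver list 2 of 3 (0 to 2), with miR-192 at 0.02 ± 0.03 and miR-194 at 0.06 ± 0.11. The epithelial list had 2 of 10 positive (0 to 4) and a median of -0.04. Its lowest p values were those of miR-200b at -0.11 ± 0.04 (limma adjusted p = 0.444) and miR-203 at -0.10 ± 0.05, followed by miR-200a at -0.43 ± 0.26, or -0.08 ± 0.04 without control replicate 1.

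The 10 uncalled probes with the lowest p were mostly higher. miR-691 came closest, with 10.09, 10.22, 10.37 and 10.40 in T2R1 against 9.96, 9.84, 9.49 and 9.46 in control. The groups did not overlap, and the difference of 0.58 ± 0.13 had a limma adjusted p of 0.0554. miR-7a-2* (0.44 ± 0.11), miR-3473 (0.43 ± 0.11), miR-34b-3p (0.37 ± 0.10), miR-301b* (0.27 ± 0.07), miR-665* (0.27 ± 0.08), miR-149 (0.16 ± 0.04) and miR-1960 (0.14 ± 0.04) also had positive differences. miR-138-2* (-0.16 ± 0.04) and miR-2183 (-0.27 ± 0.08) had negative ones. Without control replicate 1 the count of calls was 17, of which 12 were higher and 5 lower. Of the 12 calls, 11 remained, miR-1186b being lost, and 6 were added. miR-691, miR-7a-2*, miR-138-2* and miR-2183 were among these with limma adjusted p values of 0.0215, 0.0334, 0.0261 and 0.0317. The others, named after their values were seen, were miR-130a* at -0.14 ± 0.03 (limma adjusted p = 0.0215) and miR-101b at 0.29 ± 0.06 (limma adjusted p = 0.0261).

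Within the slide run, T2R1 was set against T1R1, hearts with 1 day less of exposure. No mouse probe was called in limma, 0 of 1022 (0%), and 37 had an unadjusted p under 0.05 where 51.1 are expected by chance, 12 of them higher in T2R1. None of the alternative settings or left-out samples gave a call either. let-7a had the lowest unadjusted p. It was 0.26 ± 0.07 higher in T2R1 (limma adjusted p = 0.999), with a mean of 8.38 ± 0.07 in T2R1 and 8.12 ± 0.04 in T1R1 (SD, n = 4 each). The next lowest p values were those of miR-3084* (-0.21 ± 0.06), miR-340-5p (-0.13 ± 0.04), miR-487b (0.18 ± 0.06) and miR-93 (-0.20 ± 0.07), all with a limma adjusted p of 0.999. The other called probes of T2R1 differed from T1R1 by -0.07 ± 0.04 for miR-150 up to 0.24 ± 0.12 for miR-677*.

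The differences from control over the 3 lengths of exposure share the control samples and are given side by side. For let-7a they were 0.51 ± 0.07 in T1R1, 0.77 ± 0.07 in T2R1 and 0.10 ± 0.07 in T3R1. For miR-30a they were 0.68 ± 0.07, 0.72 ± 0.07 and -0.04 ± 0.07 in the same order. T1R1 and T2R1 cross the slide runs and T3R1 does not. miR-720 stood at 0.90, 1.09 and 0.04, miR-133a* at 0.43, 0.42 and 0.01, miR-582-3p at -0.46, -0.41 and -0.01, and miR-1186b at -0.56, -0.53 and -0.06. miR-883a-5p stood at 0.41, 0.51 and 0.31, miR-24-1* at 0.31, 0.42 and 0.16, and miR-150 at -0.18, -0.25 and -0.12. Against T3R1, across the slide runs, T2R1 had 10 calls of 1023 probes (0.978%), 6 higher (0.587%) and 4 lower (0.391%). For T3R1 against control, within the slide run, limma called 0 of 1022 probes (0%), and 70 had an unadjusted p under 0.05.

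**Figure D5:**
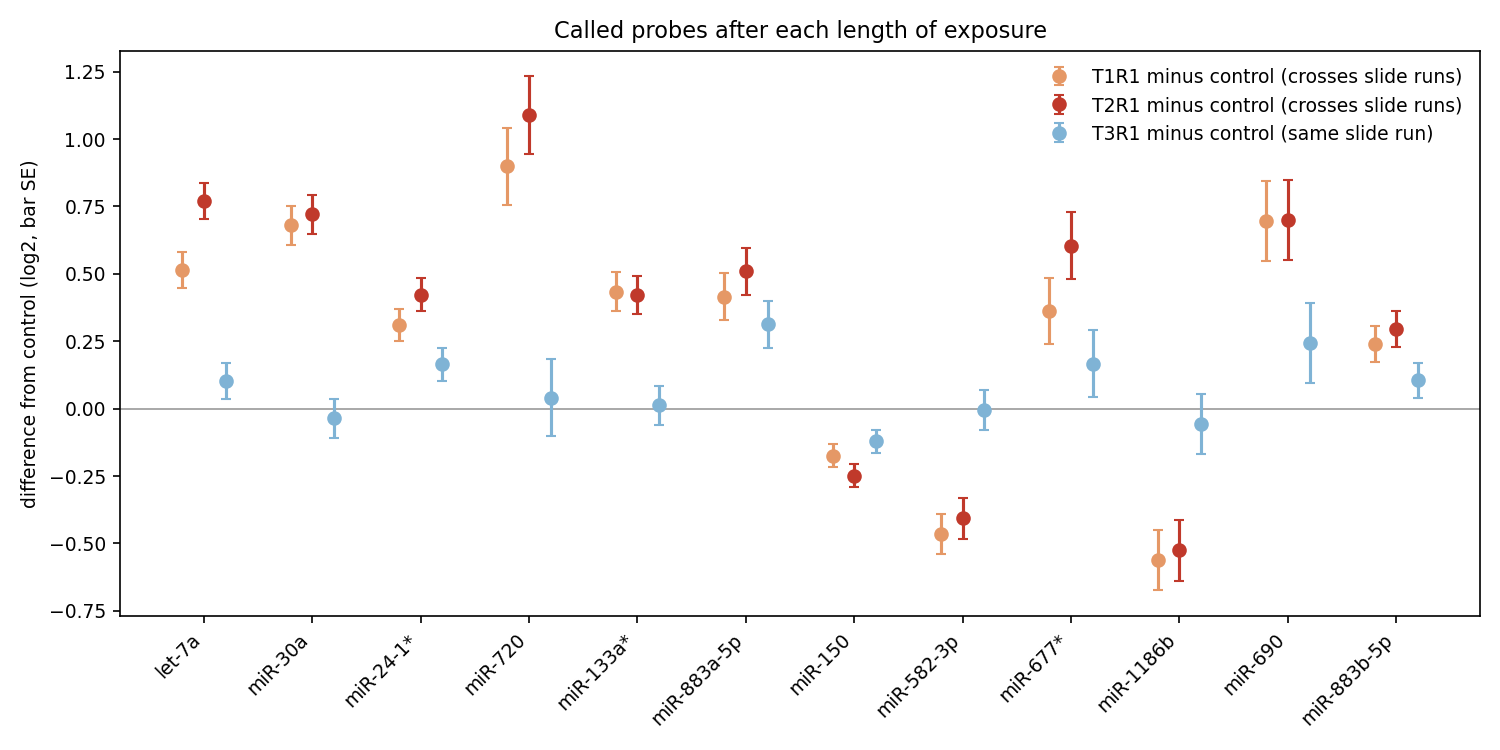
Differences from control of the 12 probes called in T2R1, on the log2 scale with SE bars, after 1, 2 and 3 days of exposure (orange, red and blue). T1R1 and T2R1 cross the slide runs, with let-7a at 0.51 and 0.77 and miR-30a at 0.68 and 0.72. T3R1, from the slide run of the control, has points between -0.12 and 0.31.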

How the data were processed

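The authors deposited scanner output of 8 arrays, per the file headers made with Agilent Feature Extraction 9.5.3.1, as an intensity per spot and channel with no background subtracted. A log2 value table was also deposited, and this alternative has columns that share a median of 3.76. How it was made, and its centring, are not given in the sources used here.

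Spot intensities were background-corrected (normexp, offset 50), loess-normalized within arrays with control and outlier spots at weight 0, and set equal between arrays by Aquantile (limma 3.58.1, R 4.3.3, data.table version 1.17.8). Outlier spots (1.69% to 5.52% of a sample) were left out, saturated ones kept, and spots of a probe averaged. The offset shrinks the differences of dim probes. The scanner's well-above-background mark was set for at least 99.95% of spots, so virus probes served as background.

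limma fitted all 16 samples by group and dye, with the array as a random block (correlation 0.246) and eBayes. P values were adjusted by Benjamini-Hochberg over mouse probes, and called at an adjusted p under 0.05. Residual degrees of freedom had a median of 11, and the median SE was 0.06, or 0.10 above the virus level. The number of arrays limits the precision. On data simulated with the fitted spread and array correlation but no slide-run effect, 9 of 199 calls were false. True changes of 0.3, 0.5, 0.8 and 1.5 were planted there, each in 50 of 1016 probes, a larger share than was called in the data. The share of false calls rests on that setting and on the correlation of 0.246, so it gives no error rate for the 12 calls. That simulation does not bear on the slide runs. Replicate numbers were not used as pairs in the main model. Same-numbered T2R1 and control samples correlated at -0.05, 0.23, 0.16 and 0.25 across probes after group means were removed. For no T2R1 sample was the same-numbered control sample the closest match. With dye removed too the values were -0.59 to -0.08, but that fit itself pushes them down, so they cannot decide on pairing.

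The microRNAs named are all called, the 10 next by p, other strands, same seeds, neighbours within 10 kb, the 10 brightest, and members of 3 lists. Seeds and neighbours were looked up for the 8 called microRNAs that RefSeq held. The other lists give 2 to 4 each by lowest p. Members and lists were chosen with earlier results of these data known.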

Additional observations from a re-analysis of the deposited data

Results flagged for a closer look

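Among the 85 groups of 4 samples examined for a value far from the rest, over 45 probes, 2 held one, where chance gives about 1 in 20. miR-30a was 8.55 in T2R1 replicate 2, against 8.43 to 8.44 in the other T2R1 samples. miR-24-1* was 7.81 in T2R1 replicate 2, against 7.87 in each of the others. Both gaps are small beside the differences from control.

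T2R1 also differed from T3R1 in limma, in a comparison that crosses the slide runs, so that run and length of exposure cannot be told apart. let-7a was 0.67 ± 0.07 higher in T2R1 (limma adjusted p = 5.14e-05), miR-30a 0.76 ± 0.07 (5.14e-05), miR-720 1.05 ± 0.10 (0.000273), miR-133a* 0.41 ± 0.07 (0.0108) and miR-149 0.23 ± 0.04 (0.025). miR-582-3p and miR-138-2* were lower in T2R1, with differences of -0.40 ± 0.08 (0.0179) and -0.28 ± 0.04 (0.00119). In that comparison 10 of 1023 probes were called (0.978%).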

How the results depend on the processing

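The count of 12 calls for T2R1 against control moved most with the step between arrays: median scaling called 158 (152 higher, 6 lower) and no step between arrays 661 (6 higher, 655 lower). In the main setting 75% of the calls were higher. With normexp without an offset 3 were called, with the scanner's processed signals 2, with the authors' deposited values 7, with the array correlation taken from probes above the virus level 3, with the 2 samples of an array averaged 2 (let-7a and miR-30a), with only the 8 samples compared 4, with Hy3 samples alone 1, with Hy5 samples alone 3 and with eBayes with trend and robust 7, all of them higher. Leaving out each sample gave 8 to 17 calls. A replicate block in place of the dye term gave 15 calls (12 higher, 3 lower) and kept 11 of the 12. Control spots left out before the step between arrays, an alternative chosen after seeing the data, gave 11. T2R1 against T1R1 gave 0 calls throughout.

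let-7a was called in all 18 alternatives, miR-30a in 17 (not with Hy3 samples alone, limma adjusted p = 0.137), and both without each sample. The alternative of probes well above background removed no tested probe and so repeats the main calls. Median scaling turned miR-150 (0.035), miR-582-3p (0.479) and miR-1186b (0.528) positive, and no step between arrays turned miR-883b-5p negative (-0.245). Under median scaling miR-582-3p and miR-1186b were called higher (limma adjusted p of 0.0209 and 0.0289). The cause was not tested.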

Other observations

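Among all 2666 probes put through the same limma model, the lowest adjusted p belonged to a probe that names no mouse microRNA. The probe named for rat miR-129-1* and miR-129-2* was lower in T2R1 than in control by a log2 difference of -0.74 ± 0.05 (SE, limma adjusted p over the whole array = 6.46e-07) and was above the virus level in all 8 samples. The mouse probe named miR-129-1-3p differed by only -0.06 ± 0.06 (limma adjusted p over mouse probes = 0.893). Probes named for human miR-378b and miR-378c were higher in T2R1, by 0.53 ± 0.12 (0.0353) and 0.36 ± 0.07 (0.0166), beside 0.24 ± 0.13 for the mouse probe of miR-378/miR-378b and 0.06 ± 0.16 for that of miR-378. Unnamed probes gave 10 calls of 233, with the largest difference at 0.95 ± 0.18 (0.0158). These comparisons cross the slide runs, and the RNA that such probes bind in mouse heart was not tested.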
